A study of Rattus norvegicus with 20 samples.

Results

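Bladder and trachea epithelial cells that had been cultured but not yet transplanted shared 29 genes whose levels set them apart from every other culture of the series, and these genes were the subject here. The genes were chosen by their own measured levels. Of the 32494 genes in the files, those were taken whose level in bladder and in trachea before transplantation was at least 1.5 above the highest level of the other 8 groups. A level was the mean over the 2 samples of a group of log2(CPM + 1), where CPM (counts scaled to a common library size) is computed from reads on genes, so 1.5 on this scale is close to a 2.8-fold step for a well covered gene. A second condition asked that vagina or thymus before transplantation lay less than 1 above whisker before transplantation. The margin was met by 39 genes. The second condition left out 6 of them (the keratins Krt8 and Krt18 among these), and 4 more were left out by family: the collagens Col1a1, Col3a1 and Col6a2, and the cadherin Cdh6. Of the 29, 11 carried a symbol in the study's gene tables and 18 did not. The families left out were known only by symbol (Dcn, and those starting Slc, Krt, Col, Itg, Cdh, Hox, Fox or Wnt). Genes of these families may therefore remain among the 18 without a symbol.

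The study cultured Tp63-expressing epithelial cells from rat organs and asked what they became in skin. RNA was sequenced from 20 samples in 10 groups of 2: cells from bladder (its dome), from trachea, from vagina, from thymus and from whisker, each before transplantation (the first round) and after recovery from a skin graft (the second round, labelled RC). The donors were Sprague-Dawley rats carrying an actin promoter EGFP transgene (green rat CZ-004), aged PN201 for bladder, PN200 for trachea and vagina, PN137 for thymus and PN57 for whisker (PN, postnatal day), so donor age differed with the organ. All cultures grew on irradiated 3T3-J2 cells, a mouse fibroblast line used as feeder, and EGFP-positive cells were sorted before RNA was made. The recovered cells had been dissociated from skin grafts on the backs of nude mice and cultured again. The whisker groups were a clone (Cl7) and a subclone (scl14). The thymus cells were called bulk in the sample titles and clone 9 and bulk 907 in the source names. Nothing in the labels said that the 2 samples of a group came from separate cultures or animals, so p-values measure the spread between these samples, which may be technical.

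As background, the bladder is lined by urothelium and the trachea by a pseudostratified airway epithelium, and both keep basal cells that express Tp63 and can be expanded in culture. In culture such cells divide for many passages and lose part of the differentiated programme of the organ. The 11 named genes belong to several families. Cxcl6 is a chemokine that attracts neutrophils. Inhba encodes the subunit of activin A, a secreted ligand of the TGF-beta family. Bgn encodes biglycan, a small proteoglycan of the extracellular matrix. Cyba encodes p22phox, a membrane subunit of NADPH oxidases. Gpx3 is a secreted glutathione peroxidase. Bcat1 is the cytosolic transaminase of branched-chain amino acids, and Ass1, argininosuccinate synthase, makes the precursor of arginine. Podxl encodes podocalyxin, a sialomucin of the apical cell surface. Tubb2b is a beta-tubulin, Celf3 an RNA-binding protein of the CELF family, and Akap2 an anchor of protein kinase A.

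Since the genes shared a pattern of levels, the 250 bases before their annotated start sites were read from RefSeq (build GRCr8) for the 10 of 11 named genes that had an entry (Akap2 was matched through a synonym, to Pakap). Searched on either strand were the TATA box TATAAA, the binding letters TGANTCA of AP-1 (N is any base), the letters GGAATG of TEAD factors, the E-box CAGCTG and the box CCAAT bound by NF-Y. CCAAT was found in 5 of the 10 promoters, against 34.3% of all 27457 promoters of the same length. TATAAA was in 2 of 10 (13.1% of all promoters), GGAATG in 2 of 10 (11.8%) and CAGCTG in 2 of 10 (11.9%). TGANTCA was in none of the 10, against 6.36% of all promoters. No motif was held by every promoter. The count of CG dinucleotides ran from 2 (Inhba) to 32 (Akap2), with a median of 6.5, beside a median of 6 over all promoters. A match describes letters in this window only.

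The sequences of 4 of these promoters follow, 5′ to 3′ on the strand of the gene, chosen to show the spread in content: Bcat1, which had the largest margin, Inhba, which held 2 of the motifs and 3 copies of CCAAT, Cxcl6, and the CG-rich Podxl with none of the motifs. Capitals mark a motif or its reverse complement.
Bcat1 (chr4:179777289-179777538, minus strand): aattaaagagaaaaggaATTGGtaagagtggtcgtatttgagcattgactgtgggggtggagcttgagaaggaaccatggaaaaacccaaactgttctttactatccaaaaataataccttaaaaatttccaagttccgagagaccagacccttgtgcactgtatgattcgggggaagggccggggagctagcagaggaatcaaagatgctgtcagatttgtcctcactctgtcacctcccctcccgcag
Inhba (chr17:53804509-53804758, minus strand): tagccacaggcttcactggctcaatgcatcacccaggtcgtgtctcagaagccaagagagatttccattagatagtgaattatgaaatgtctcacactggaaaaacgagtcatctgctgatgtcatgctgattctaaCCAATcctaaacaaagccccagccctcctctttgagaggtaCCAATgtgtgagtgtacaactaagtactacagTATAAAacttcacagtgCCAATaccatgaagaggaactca
Cxcl6 (chr14:17596418-17596667, minus strand): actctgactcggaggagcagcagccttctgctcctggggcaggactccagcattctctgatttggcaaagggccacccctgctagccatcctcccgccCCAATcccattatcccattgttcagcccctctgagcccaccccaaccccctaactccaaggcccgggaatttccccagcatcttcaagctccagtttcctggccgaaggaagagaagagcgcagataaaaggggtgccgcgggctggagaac
Podxl (chr4:61149132-61149381, minus strand): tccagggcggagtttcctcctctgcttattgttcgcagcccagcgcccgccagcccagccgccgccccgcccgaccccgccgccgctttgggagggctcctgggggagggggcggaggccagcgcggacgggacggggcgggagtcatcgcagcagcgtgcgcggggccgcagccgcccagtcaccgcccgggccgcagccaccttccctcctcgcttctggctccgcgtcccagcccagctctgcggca

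By the rule, the levels before transplantation against the other groups are a description and carry no test. In 29 of 29 genes all 4 first-round bladder and trachea samples lay above all 16 other samples. The margin ran from 1.52 to 3.15 with a median of 1.86. The median level over the 29 genes was 4.44 in bladder and 3.46 in trachea before transplantation. It was 1.02 in recovered bladder and 1.27 in recovered trachea, and between 0.38 (whisker before) and 0.86 (vagina before) in the other 6 groups. From the first to the second round the level dropped by 2.22 to 5.31 in bladder (median 3.23) and by 1.52 to 3.88 in trachea (median 2.38). In bulk samples, fewer cells of a type and less RNA per cell cannot be told apart. After the first-round pair, the next highest group was recovered trachea for 9 genes and recovered bladder for 6. Vagina before transplantation came next for 4 genes, each thymus group for 3, whisker before for 2, and recovered vagina and recovered whisker for 1 each. Under 1 CPM in both samples stood 14 of the genes in recovered bladder and 13 in recovered trachea, and 15 to 23 in each of the other 6 groups.

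**Figure D1:**
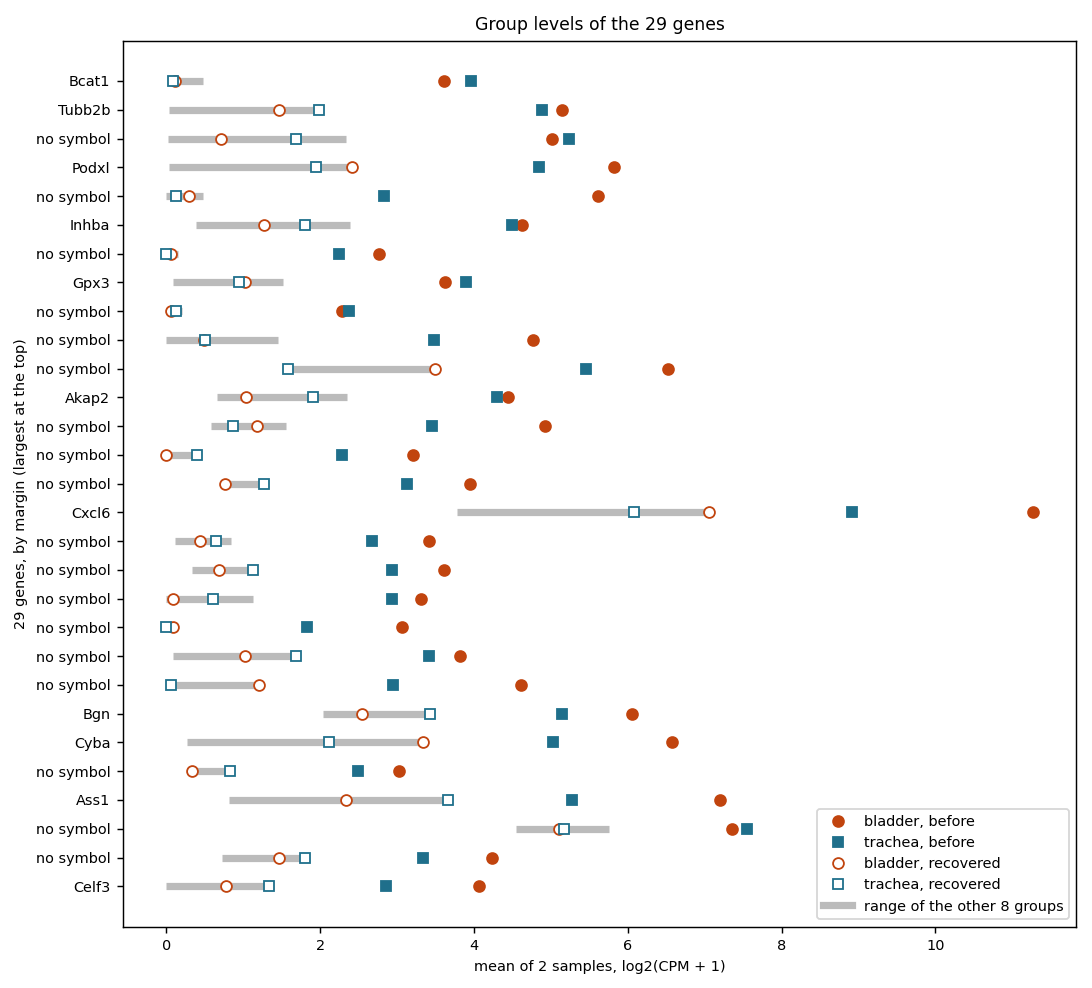
Group levels of the 29 genes, as the mean of 2 samples of log2(CPM + 1) on the horizontal axis, one gene per row and the largest margin (3.15, Bcat1) at the top. Filled symbols are bladder and trachea before transplantation, open symbols the same organs after recovery, and the grey bar spans the 8 other groups, recovered bladder and trachea included; every filled symbol lies right of its bar because the genes were chosen so.

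Metabolic and redox enzymes were among the 29. Bcat1 stood at 8.33 and 15 CPM in the bladder samples and 14.4 and 14.6 in the trachea samples before transplantation. After recovery it was at 0 and 0.16 CPM in bladder, 0 and 0.113 in trachea, and at most 0.402 in any of the 16 other samples. The recovered values rest on 0 to 4 reads a sample, so levels below about 0.1 CPM (3 reads a library, 0.101 to 0.145 CPM) were not resolved. Gpx3 was at 13.2 and 9.65 CPM in first-round bladder and 13.8 and 13.8 in first-round trachea. It was at 1.29 and 0.801 CPM in recovered bladder and 0.965 and 0.865 in recovered trachea, against 0.044 and 0.0791 in recovered whisker. First-round vagina was higher than these, at 1.68 and 2.08 CPM of Gpx3, and recovered thymus overlapped them, at 0.919 and 1.23. Ass1 was at 158 and 136 CPM in first-round bladder and 39.2 and 35.8 in first-round trachea. Its recovered values were 4.08 and 3.96 CPM in bladder, 12 and 11.2 in trachea and 10.8 and 10.9 in whisker. Bladder thus held the highest Ass1 values of the first round and lay below trachea and whisker after recovery.

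The secreted and matrix products differed in how far they reached above the other cultures. Cxcl6 was at 3220 and 1890 CPM in first-round bladder and 519 and 447 in first-round trachea. After recovery it was at 130 and 136 CPM in bladder, 62.6 and 70.5 in trachea and 25.8 and 22.3 in whisker, and it ran from 11.2 to 100 CPM in the 10 samples of vagina, thymus and first-round whisker. No sample was without Cxcl6 reads. Inhba was at 20.7 and 27.0 CPM in first-round bladder and 21.6 and 21.5 in first-round trachea. It was at 1.86 and 1.04 CPM in recovered bladder, 2.32 and 2.67 in recovered trachea and 0.352 and 0.356 in recovered whisker. The highest Inhba value outside the first-round pair was in 1 thymus sample before transplantation, at 6.55 CPM, where the other sample of that group was at 2.63. Bgn was at 80.3 and 53.2 CPM in first-round bladder and 36.3 and 32.9 in first-round trachea. It ran from 2.55 to 11.3 CPM in the 16 other samples, with recovered bladder at 5.14 and 4.6, recovered trachea at 11.3 and 8.43 and recovered whisker at 10.4 and 5.30, which overlap.

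The surface, oxidase, cytoskeletal and RNA-binding genes were still read in the recovered cells. For each of them but Podxl, recovered bladder or recovered trachea overlapped or lay below some sample of vagina, thymus or whisker. Podxl was at 66.5 and 46.3 CPM in first-round bladder and 27.7 and 27.8 in first-round trachea. It was at 4.39 and 4.24 CPM in recovered bladder and 2.65 and 3.08 in recovered trachea, above every sample of vagina, thymus and whisker, which reached 1.19. Cyba was at 102 and 86.1 CPM in first-round bladder and 31.8 and 31.4 in first-round trachea. Recovered bladder had 9.80 and 8.45 CPM of Cyba and recovered trachea 2.56 and 4.25, while first-round whisker had 6.92 in each sample and recovered whisker 0.925 and 1.34. Tubb2b was at 34.2 and 34.8 CPM in first-round bladder and 29.6 and 27.5 in first-round trachea. In recovered bladder it was at 1.60 and 1.96 CPM and in recovered trachea at 3.14 and 2.82, against 2.26 and 2.08 in first-round vagina and 0 and 0.0395 in recovered whisker. Tubb2b has a near-identical neighbour, Tubb2a, so reads of the pair may have been split or dropped by counting and its value is uncertain. Celf3 was at 19 and 13.1 CPM in first-round bladder and 6.35 and 6.10 in first-round trachea. It was at 0.576 and 0.881 CPM in recovered bladder, 1.35 and 1.69 in recovered trachea, 1.09 and 0.659 in first-round thymus and 0 in both recovered vagina samples. Akap2 was at 27.0 and 15.9 CPM in first-round bladder and 18.6 and 18.9 in first-round trachea, so the bladder pair spanned the trachea values. Its highest value elsewhere was 4.29 CPM, in a recovered thymus sample.

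**Figure D2:**
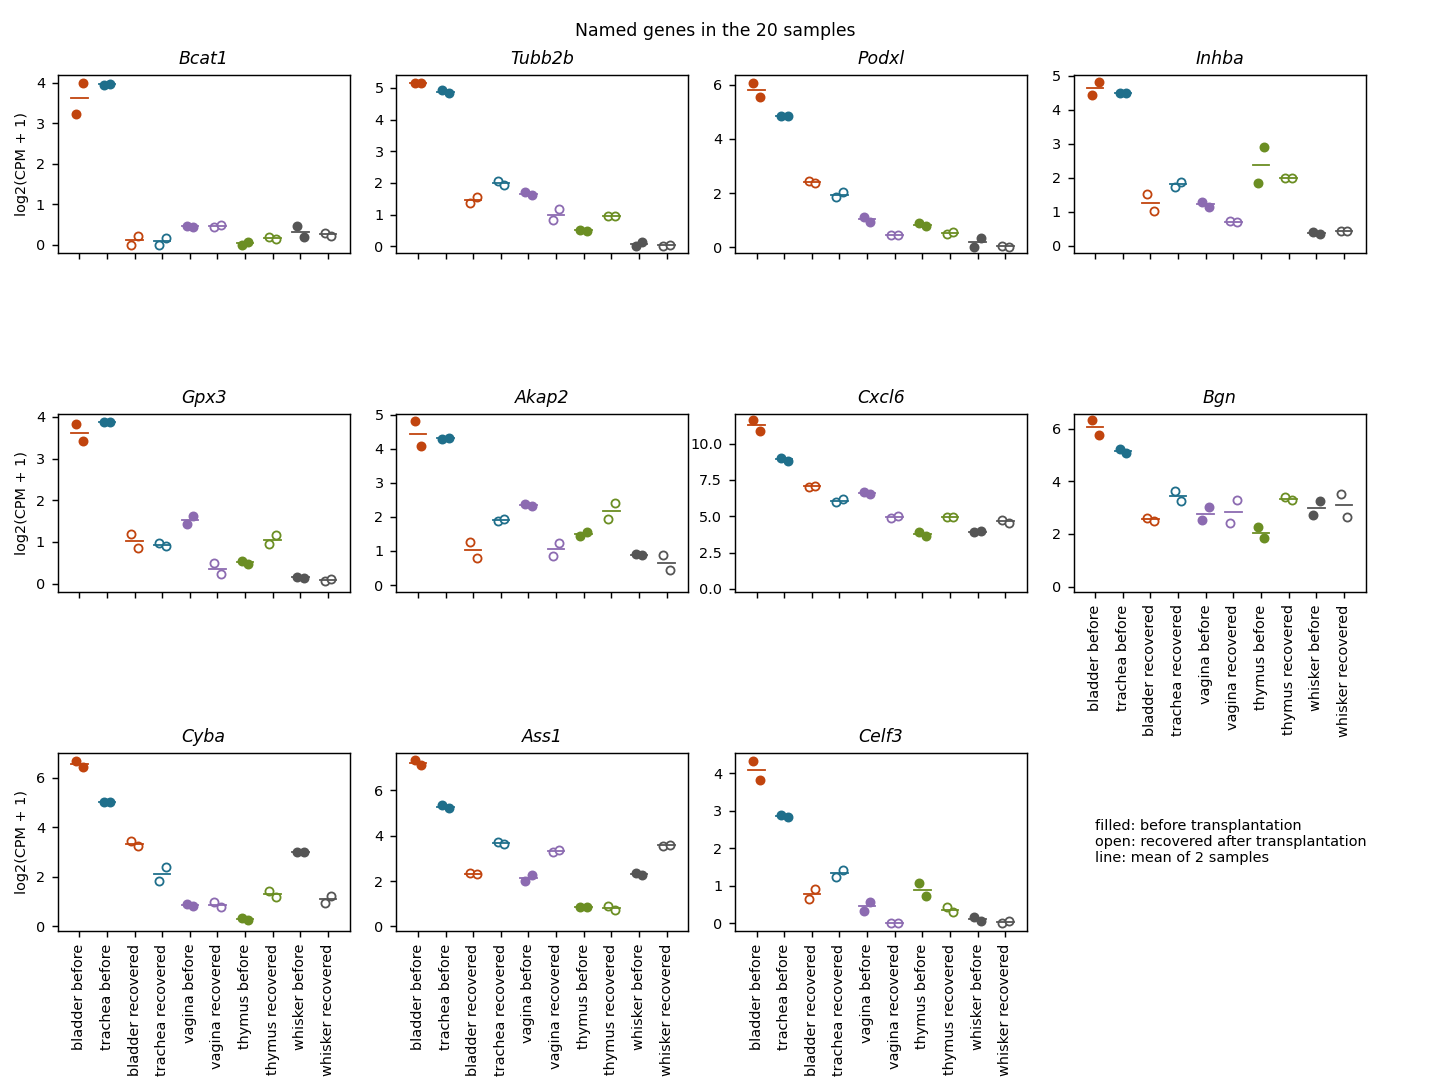
The 11 named genes in the 20 samples, as log2(CPM + 1) per sample on the vertical axis, with groups along the horizontal axis and a line at the mean of 2 samples. Filled points are cells before transplantation and open points recovered cells; bladder and trachea before transplantation stand above all other samples in each panel, and the scales differ between panels.

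At the edge of the rule stood Celf3 (margin 1.52), Ass1 (1.61) and Cyba (1.69) among the named genes inside it. Just outside, with every other condition met, were Cp, ceruloplasmin, at a margin of 1.46, Camk1d, a calmodulin-dependent kinase, at 1.40, and Crmp1, a collapsin response mediator protein, at 1.36. The levels of Cp were 4.86 in bladder and 4.31 in trachea before transplantation and 2.85 in the next group, recovered thymus.

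The 18 genes without a symbol had margins from 1.54 to 2.67 (median 1.85). Their median level was 3.88 in first-round bladder and 2.94 in first-round trachea, and 0.59 and 0.73 in the recovered cells. ENSRNOG00000009149, with the largest margin of these, was at 40.5 and 24.1 CPM in first-round bladder and 35.0 and 38.4 in first-round trachea. It was at 0.754 and 0.521 CPM in recovered bladder and 2.41 and 2.03 in recovered trachea. ENSRNOG00000060728 was at 169 and 157 CPM in first-round bladder and 196 and 177 in first-round trachea, and its other 16 samples lay between 22.0 and 57.2 CPM, so it was read in every culture.

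Against the labelled organs, 3 of the 4 urothelial markers identified, of 13 listed, were called higher in first-round bladder than in first-round trachea (Krt19, Foxa1 and Elf3) and none lower. Elf3 was not highest in bladder: it was at 546 and 458 CPM there, 636 and 525 in first-round thymus and 904 and 893 in recovered thymus. The uroplakin Upk1b was at 166 and 196 CPM in first-round bladder, 133 and 146 in first-round trachea and 167 and 131 in first-round thymus. Aqp5, a water channel of airway glands, was at 20.7 and 23.5 CPM in first-round trachea and at 0.0372 and 0 in first-round bladder. First-round thymus had 7.15 and 6.02 CPM of Aqp5. Of the 4 airway markers identified, Aqp5 was called lower in first-round bladder than in first-round trachea. Krt18 was called higher, at 378 and 296 CPM against 76.5 and 77.9, and Krt8 and Cftr were not called. Krt8 and Krt18 are not particular to airway, since the paper stained their proteins in cultured bladder cells. Cftr was at 25.0 and 25.8 CPM in first-round trachea and at 126 and 155 in first-round thymus. Markers of other cells moved with the same groups. Of the 27 fibroblast markers listed, 10 could be identified by a symbol in the study's gene tables. Those tables name genes that differed from whisker cells in these samples. Markers of any list that they do not name could not be looked up and may still be expressed. Of the 10, 9 (all but Col5a2) had higher levels in both first-round bladder and first-round trachea than in any of the 8 other groups. The summed level of the 10 was 485 to 557 CPM in first-round bladder, 848 to 900 in first-round trachea and 283 to 1210 in the other groups. Without Col5a2, the most abundant of them, it was 379 to 453, 543 to 558 and 72.2 to 164 CPM in the same order. None of the 10 was at 0 in any sample. Col1a1, a fibrillar collagen, was at 175 and 130 CPM in first-round bladder, 161 and 163 in first-round trachea and 13.1 to 32.7 in the 16 other samples. Of 10 basal epithelial markers listed, 2 were identified, Col17a1 and Dst. They summed to 559 to 834 CPM in first-round bladder, 1190 to 1310 in first-round trachea and 1620 to 5710 elsewhere. Only Col17a1 went the opposite way, at 235 to 493, 761 to 823 and 1040 to 5050 CPM in the same order. Dst was at 324 to 341, 433 to 489 and 259 to 866 CPM, so it overlapped the other groups. The 4 genes identified on the airway list (Cftr, Aqp5, Krt8 and Krt18, of 13 listed) summed to 2040 to 2050 CPM in first-round bladder. They summed to 1290 to 1340 CPM in first-round trachea and 0.352 to 555 in the other groups. In both first-round groups most of the sum was Krt8, and Cftr was at only 18.8 and 10.8 CPM in first-round bladder. The sum is therefore no measure of airway identity. The 5 leukocyte markers identified, of 18, summed to 45.5 to 75.4 CPM in first-round bladder, 28.8 to 32.6 in first-round trachea and 11.6 to 70.9 elsewhere. Without Cd68, the most abundant of them, the sum was 31.8 to 60.8, 17.1 to 19.5 and 1.06 to 9.8 CPM in the same order. Of the 5, 3 had higher levels in both than in any of the 8 other groups. Clec12a was 1 of these 3, at only 0.082 and 0.0427 CPM in first-round trachea. The part of any of these cell types in the levels of the 29 genes was not tested.

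The 2 samples of first-round bladder differed more than those of first-round trachea, a measure the rule did not use. The median difference between replicates, regardless of sign, was 0.42 in log2(CPM + 1) over the 29 genes in bladder, beside 0.16 over the 13302 genes tested. In trachea it was 0.10 beside 0.08. In bladder, 7 of the 29 genes were higher in replicate 2, Bcat1 and Inhba among them, and the difference ran from -0.77 to 0.78 with a median of -0.26. The 10 fibroblast markers had a median of -0.33 between the same samples, with 3 of 10 higher in replicate 2. Across the 10 groups, the step between replicates went in the direction of the fibroblast markers' median in 1 to 8 groups for the 29 genes, with a median of 5, and in 8 for 5 genes, Bgn and Podxl among them.

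**Figure D3:**
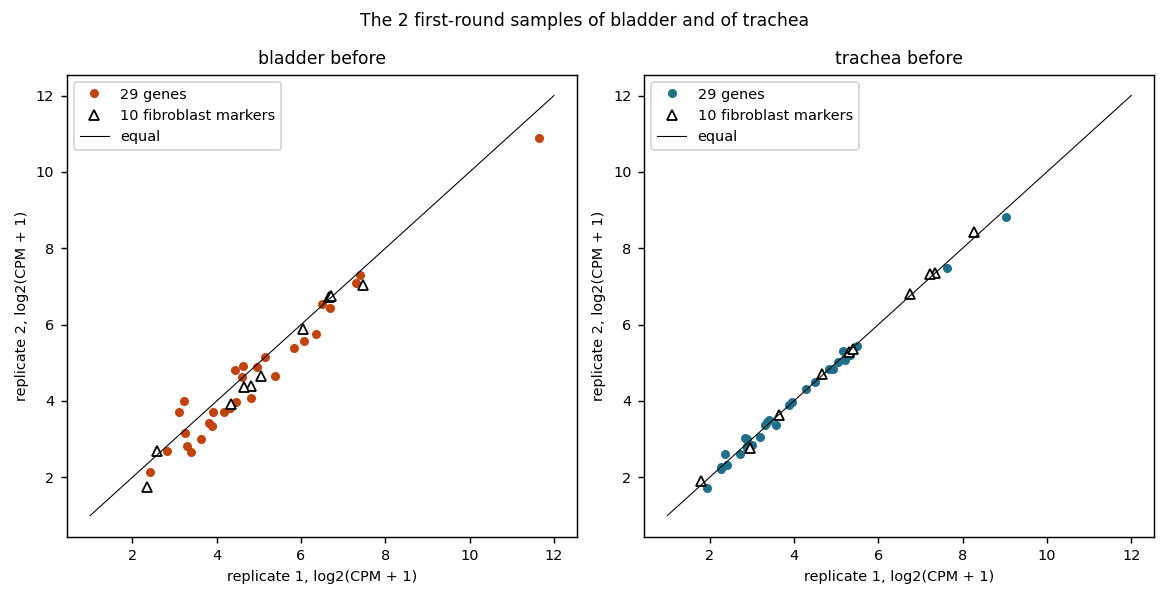
Replicate 2 against replicate 1, both in log2(CPM + 1), for first-round bladder (left) and first-round trachea (right), with the 29 genes as filled circles, the 10 fibroblast markers as open triangles and a line of equal values. In bladder most genes lie below the line (median difference -0.26) and in trachea close to it (median -0.05).

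Which of the 29 genes differed between the organs themselves before transplantation was tested with limma voom. The rule had not used this comparison, though it had used the levels of both groups. The shares over all genes come from genes not chosen in this way, so the counts describe the 29 only. Bladder was higher than trachea in 13 of 29 genes (adjusted p under 0.05, at least 2-fold), beside 9.94% of all 13302 genes tested. None was lower, beside 5.59% of all genes. The filter on low values (1 CPM in any sample) was passed by 8 of the 29 genes through these first-round groups alone. Over the other 21 genes, 10 were higher and 0 were lower. The median log2 fold change of the 29 was 0.98, against -0.01 over all genes, and it ran from -0.32 to 3.05. Cxcl6 was 2.43 higher in log2 units (SE 0.17, limma adjusted p = 7.7e-09), Ass1 2.04 (SE 0.09, limma adjusted p = 2.6e-11) and Cyba 1.65 (SE 0.11, limma adjusted p = 3.5e-09). For each gene the spread was estimated over all 10 groups together. The SE may thus understate the spread of first-round bladder, where Cxcl6 had a mean of 2550 CPM with an SD of 940. Celf3 was higher by 1.43 (SE 0.19) and Podxl by 1.08 (SE 0.15). Without bladder replicate 1 the value of Podxl was 0.80 and no longer passed. Bgn, at 1.00 (SE 0.22, limma adjusted p = 0.0017), stood just under the fold threshold, and passed it in edgeR and in DESeq2 (1.03 in each) and, at 1.31, without bladder replicate 2. Tubb2b differed by 0.35 (SE 0.10), under the fold threshold. Akap2 (0.23, SE 0.19), Inhba (0.20, SE 0.16), Gpx3 (-0.20, SE 0.14) and Bcat1 (-0.32, SE 0.20) did not pass. The genes without a symbol made up the other 8 calls. Complement and innate genes, a list of 34 of which 16 were identified and which holds Cyba, had 6 higher in bladder, C3, Cyba and the chemokine Ccl20 among them, and 3 lower, the complement C1 proteases C1r, C1s and C1rl. Of the 8 matrix glycoproteins and proteoglycans identified, of 42, 3 were higher and 1 was lower, and Bgn was not among them. Among 11 receptors and growth factors of mesenchyme, of 44, 2 were higher in bladder (Cxcl12 and Bmp2) and none was lower.

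In the recovered cells, the whisker subclone served as the follicle reference, and the comparisons of bladder and of trachea shared its 2 samples. The rule had not used comparisons between recovered groups, though it held their levels at least 1.5 below the first-round pair. Recovered bladder was higher than recovered whisker in 12 of the 29 genes, beside 13.5% of all genes tested, and lower in 1, beside 6.59%. The filter on low values (1 CPM in any sample) was passed by 8 of the 29 genes, Bcat1 among them, through first-round bladder or trachea alone, so they entered the comparisons of recovered cells because of the groups where they are high. Over the other 21 genes, 11 were higher and 1 was lower. The median log2 fold change of the 29 was 0.91, against -0.01 over all genes. Cyba was higher by 3.04 on the log2 scale (SE 0.31, limma adjusted p = 5.9e-07) and Cxcl6 by 2.51 (SE 0.20, limma adjusted p = 2.3e-08). Inhba was higher by 1.94 (SE 0.64, limma adjusted p = 0.016), a call that did not hold when recovered bladder replicate 1 (1.54), recovered whisker replicate 1 (1.95) or recovered whisker replicate 2 (1.93) was left out. Ass1 was the gene that was lower, at -1.38 in log2 units (SE 0.17, limma adjusted p = 4.2e-06). Akap2 (0.91, SE 0.70), Bgn (-0.54, SE 0.42) and Bcat1 (-1.62, SE 1.16) did not pass.

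Of the 13 calls between recovered bladder and whisker, 8 had 3 reads or fewer in the 2 samples of a group together, so the size of the difference was not resolved. Podxl had 205 reads in recovered bladder and 1 in recovered whisker, a CPM ratio of 207 with an exact 95% interval of 36.7 to 8220 that covers counting error only. Tubb2b had 85 reads and 1 read, a ratio of 85.9 (15 to 3430). Celf3 had 35 reads and 1 read, a ratio of 35.4 with a lower bound of 5.94. Gpx3 had 49 reads and 3, a ratio of 16.5 (5.32 to 82.7). All 4 were called higher in bladder by limma, with adjusted p between 3.3e-06 (Tubb2b) and 0.00089 (Celf3).

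Recovered trachea was higher than recovered whisker in 14 of the 29 genes, beside 9.83% of all genes tested, and lower in 2, beside 9.22%. Over the 21 genes that reach 1 CPM elsewhere, 13 were higher and 1 was lower. Of the 16 calls, 9 had 3 reads or fewer in the 2 samples of a group together. The median log2 fold change of the 29 was 1.47, against 0.01 over all genes. Podxl was at 2.90 CPM over its 2 samples against 1 read, a CPM ratio of 139 (exact 95% interval 24.5 to 5530), and Tubb2b 140 against 1, a ratio of 142 (25.1 to 5650). Celf3 had 73 reads against 1, a ratio of 74.1 (12.9 to 2970), and Gpx3 43 against 3, a ratio of 14.5 (4.66 to 73.3). Among genes with more reads, Inhba was higher by 2.65 (SE 0.60, limma adjusted p = 0.0014), Akap2 by 2.22 (SE 0.62, limma adjusted p = 0.0064), Cyba by 1.48 (SE 0.34, limma adjusted p = 0.0017) and Cxcl6 by 1.37 (SE 0.20, limma adjusted p = 2.6e-05). The Akap2 call was lost, at 1.58, without recovered whisker replicate 2. Ass1 differed by -0.01 (SE 0.13) and Bgn by 0.30 (SE 0.36). Bcat1 was at 3 reads against 9, a ratio of 0.338 (0.0589 to 1.36), and was not above whisker. The 2 genes called lower had no symbol. ENSRNOG00000014258 was at 2.03 and 1.96 CPM in recovered trachea and 7.40 and 6.44 in recovered whisker (-1.88, SE 0.17). ENSRNOG00000031041 had 0 reads against 3, both at or under the floor, so its call gives no difference that the depth can show. The 14 higher calls were 8 genes with a symbol and 6 without one.

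The recovered organs were then set against each other. Recovered bladder was higher than recovered trachea in 4 of the 29 genes, beside 12.3% of all genes tested, and lower in 5, beside 6.0%. Over the 21 genes that reach 1 CPM elsewhere, 4 were higher and 4 were lower. The median log2 fold change was -0.51, against 0.01 over all genes. Cyba (1.56, SE 0.22, limma adjusted p = 1.9e-05) and Cxcl6 (1.14, SE 0.18, limma adjusted p = 4.2e-05) were higher in bladder, as they were before transplantation. Ass1 was lower in recovered bladder, at -1.38 (SE 0.17, limma adjusted p = 4.1e-06), where it had been higher in first-round bladder. Akap2 was lower at -1.31 (SE 0.53, limma adjusted p = 0.048), and that call was lost whenever any of the 4 samples was left out, at -0.80 to -1.76. Podxl (0.72, SE 0.35), Tubb2b (-0.58, SE 0.25), Inhba (-0.71, SE 0.43), Celf3 (-0.92, SE 0.47), Bgn (-0.84, SE 0.41) and Gpx3 (0.29, SE 0.41) did not pass. Bcat1 had 4 reads against 3, which gives no usable difference (ratio 1.33, 0.225 to 9.06). Of the 16 complement and innate genes, 8 were higher in recovered bladder and 1 was lower.

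**Figure D4:**
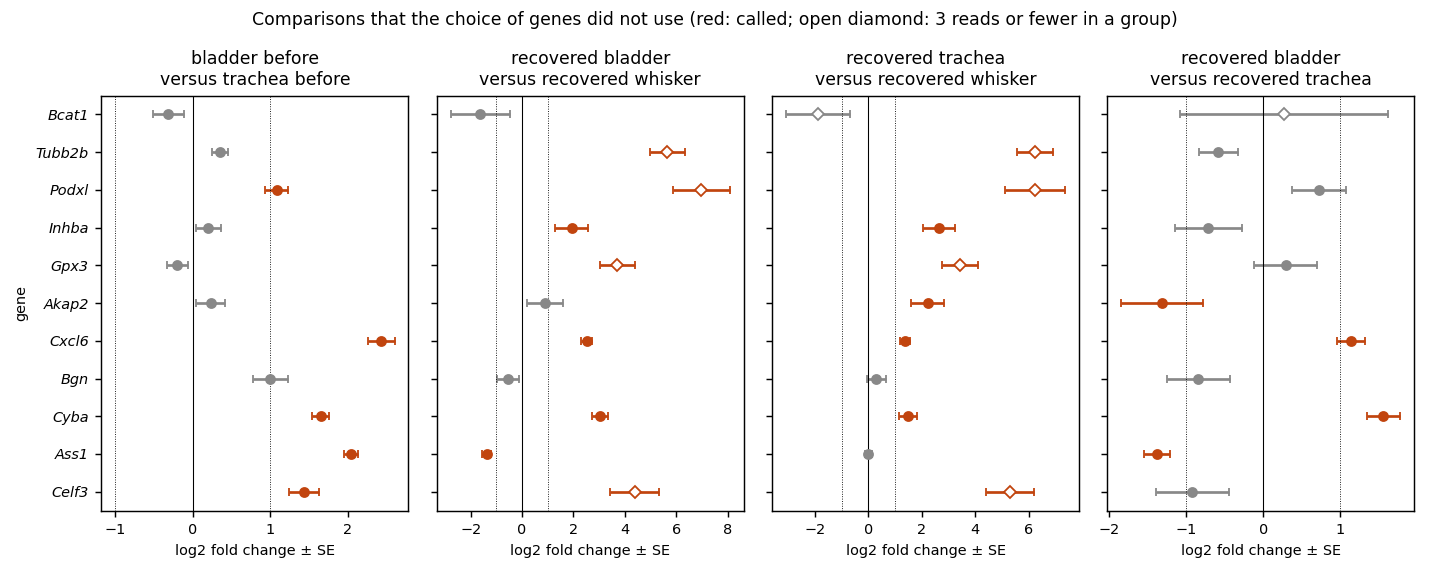
Log2 fold change with its standard error for the 11 named genes in comparisons that were not themselves part of the choice of genes, which did use the levels of these groups. Red marks a call at an adjusted p under 0.05 and at least 2-fold (dotted lines), grey no call, and an open diamond 3 reads or fewer in a group; Cxcl6 and Cyba are right of the upper dotted line in every panel and Ass1 changes side between the first panel and the last.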

How the data were processed

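RNA was measured in 20 samples of cultured rat epithelial cells. The authors deposited raw read counts per gene and sample, and their processing notes name cutadapt 1.8, STAR 2.5.2b, HTSeq 0.6.1 and the build Rnor_6.0. The libraries were TruSeq Stranded mRNA. Rows that named no gene (41.6 to 46.4% of the rows' total) were left out. Reads on genes ran from 20723083 to 29824855 a sample, so 3 reads were worth 0.101 to 0.145 CPM. Identical or duplicate libraries were not found: a chi-square per gene between replicates averaged 2.43 to 41.3. Symbols came from the study's gene tables (2311 identifiers), which list genes that differed from whisker cells, so other listed markers could not be identified. Tests used limma 3.58.1 voom in R 4.3.3 on TMM-scaled counts of 13302 genes (at least 1 CPM in 1 sample), with 10 group means, Benjamini-Hochberg adjustment, and calls at an adjusted p under 0.05 and at least 2-fold; all 29 genes passed this filter, 8 of them through first-round bladder or trachea alone. edgeR 4.0.16, DESeq2 1.42.0, other scalings, filters and samples left out were alternatives. The named genes were all members with a symbol, plus the nearest genes outside the rule. The fits were tested on simulated data. The members, lists and comparisons were chosen with earlier results of these data known, since the rule and lists were proposed from them.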

Additional observations from a re-analysis of the deposited data

Results flagged for a closer look

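The distance from recovered whisker differed between recovered bladder and recovered trachea for 4 named genes, by limma's test of recovered bladder against recovered trachea itself. The difference in log2 fold change was 1.56 for Cyba and 1.14 for Cxcl6, further above whisker in bladder, and -1.38 for Ass1 and -1.31 for Akap2. The Akap2 value depended on single samples.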

How the results depend on the processing

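With a fold threshold of 4 (log2 of at least 2), 3 of the 29 genes in place of 13 were called between first-round bladder and trachea, and 4 in place of 9 between recovered bladder and trachea, since fewer genes reach that size. Leaving out 1 sample at a time gave 12 to 17 calls between first-round bladder and trachea, 11 to 12 between recovered bladder and whisker, 13 to 15 between recovered trachea and whisker, and 7 to 9 between recovered bladder and trachea. The edgeR, DESeq2, size-factor, filter and 4-sample alternatives kept each of these counts within 1.5 times. With the replicate block the counts were 13, 15, 16 and 10 in that order. Replicate numbers were not treated as pairs in the main tests. Deviations of same-numbered samples correlated at -0.019 to 0.14, which cannot show whether such samples were handled together. The number of genes the rule takes was 44 with a pseudocount of 0.5 (27 of them among the 29) and 10 with a margin of 2. It was 27 with TMM-scaled CPM and 29 to 30 from a single replicate number. Of the 44 values of the named genes, 13 changed their call under at least 1 alternative and none of the calls reversed. Reads below 3 a library were not resolved, which limits the values of recovered whisker.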
